A study of Mus musculus with 7 samples.

Results

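Cardiac fibroblasts traced by Postn and cardiac fibroblasts traced by Tcf21 were compared in mouse hearts 7 days after birth, across all genes. The comparison held 4 of the 7 bulk RNA sequencing libraries of the series, 2 for each line, chosen by their labels. Postn P7 came from mice of genotype PostnMCM;R26eGFP and Tcf21 P7 from mice of genotype Tcf21MCM;R26eGFP. The other 3 libraries, Tcf21 P30, came from Tcf21MCM;R26eGFP hearts of 30 days and entered through the shared estimate of the spread. Each group pooled animals of both sexes, and GFP-positive cells were sorted before RNA was isolated. MCM denotes MerCreMer, a recombinase held inactive until tamoxifen is given, and R26eGFP is a reporter allele that recombination switches on for good. The reporter therefore marks cells in which the Postn or the Tcf21 locus was active when tamoxifen was present, together with their descendants, whatever they express later. The time of tamoxifen is not given in the sources used here, and how many animals entered each pool is not stated in the labels.

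Postn encodes periostin, a secreted matricellular protein that binds collagen and integrins and is made by fibroblasts of the developing and the injured heart. Tcf21 encodes a basic helix-loop-helix transcription factor that resident cardiac fibroblasts need to arise from the epicardium and keep into adult life. In the first week after birth fibroblasts still divide, lay down collagen, and grow alongside cardiomyocytes, vessels and the incoming sympathetic nerves. The title of the series concerns a role of periostin-expressing fibroblasts in the maturation of heart muscle and nerve after birth, and the comparison asks what set them apart from the Tcf21 lineage at the same age.

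The libraries held 17481102 and 15207835 counts in Postn P7 and 18057876 and 17765189 in Tcf21 P7. Levels are given as normalised CPM, counts divided by the library total after scaling by the trimmed mean of M values. A difference is the log2 ratio of Postn P7 to Tcf21 P7 with its standard error, and a gene was called where its adjusted p in edgeR's quasi-likelihood test was under 0.05. Nothing in the labels says that the libraries of a group came from separate animals or sorts, so the p-values measure only the spread between these libraries, which may be technical. Fibroblast markers were high in both sorts, with Pdgfra, the PDGF receptor of fibroblasts, at 660 and 816 CPM in Postn P7 and at 856 and 853 CPM in Tcf21 P7. Col1a1, the main collagen chain, stood at 7925 and 9927 CPM against 10707 and 10366 CPM. Neither gene was called. All 4 libraries also held transcripts of endothelial, mural, myeloid and muscle cells. The summed endothelial markers were at 2033 and 1310 CPM in Postn P7 and at 1617 and 1424 CPM in Tcf21 P7, and none of the 17 was called by edgeR, DESeq2 or limma-voom or had an unadjusted p under 0.05.

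Of 17636 genes tested, 2118 were called (12.0%), with 1149 higher in Postn P7 (6.52%) and 969 lower (5.49%). The median difference over all genes was 0.00, and the median size of a called difference was 0.76. Of the called genes, 564 were at least 2-fold higher and 203 at least 2-fold lower, and 39 of the 564 had no count in either Tcf21 P7 library, so their fitted change has no firm size. In 5545 genes (31.4%) both Postn P7 libraries lay above both Tcf21 P7 libraries, and in 5739 (32.5%) both lay below. The number of calls changed with the libraries used. The SD of the log2 difference between replicates over genes was 0.242 in Tcf21 P7 and 0.4 in Postn P7. Without Tcf21 P7 replicate 1 or replicate 2, 118 or 111 genes were called, and with both summed into a single library 123 were called. Without Postn P7 replicate 1 or 2 the number was 1106 or 507, and without Tcf21 P30 replicate 3 it was 1059.

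**Figure D1:**
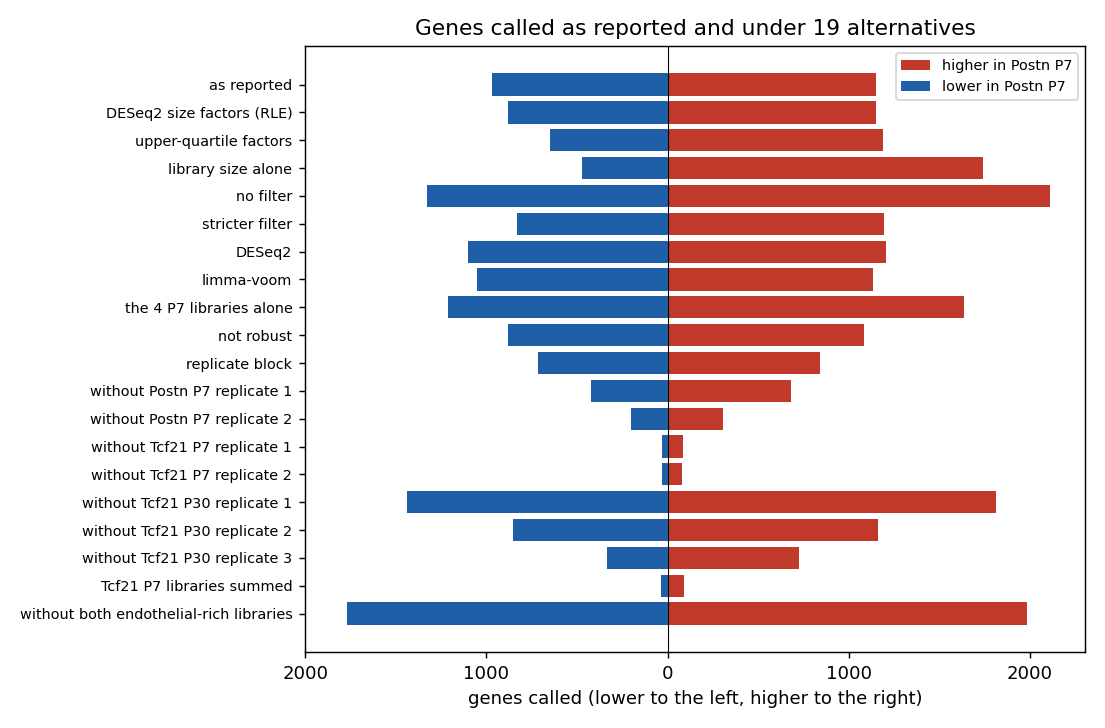
Number of genes called higher (right) and lower (left) in Postn P7 in the fit as reported and under 19 alternatives, one bar pair for each. The bars are shortest without Tcf21 P7 replicate 2, at 80 higher and 31 lower, and the longest bar is 2113 higher with no filter on low counts.

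In all, 79 genes kept their call under each of the 19 alternatives, 54 of them higher and 25 lower in Postn P7. Every other called gene named below lost its call in at least 1 alternative, most often where a Tcf21 P7 library was left out. Splicing factor genes, long non-coding RNAs, Enpep, Dlc1 and Nr2f2 were among the 54, and the 25 held macrophage genes, Pi16, Scara5, Ret and Esr1.

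**Figure D2:**
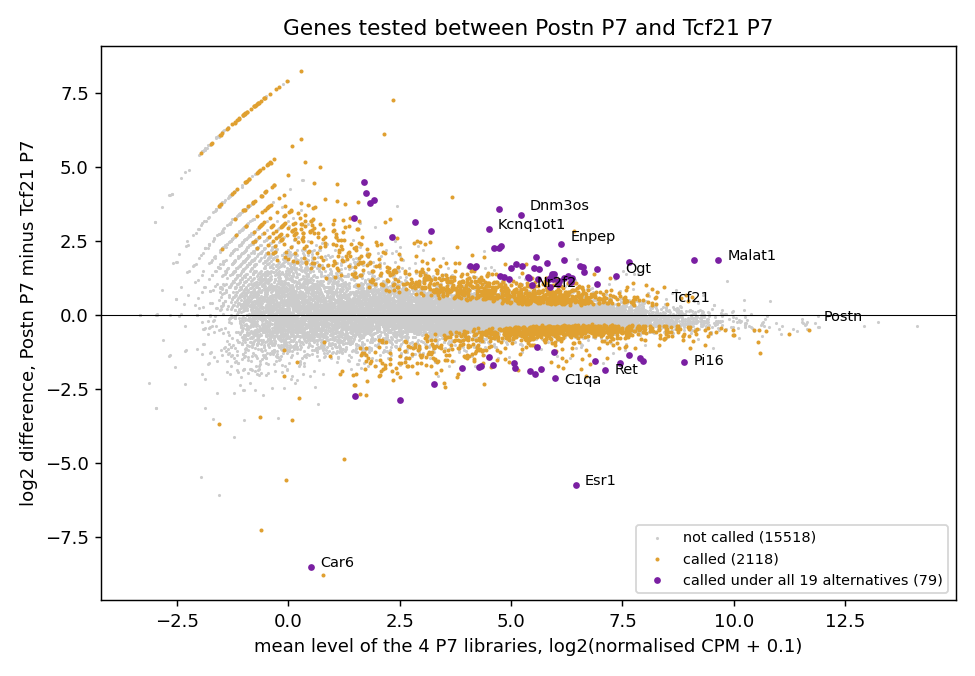
Each point is a gene tested, placed by its mean level in the 4 P7 libraries (horizontal, log2 of normalised CPM plus 0.1) and by its log2 difference, Postn P7 minus Tcf21 P7 (vertical). Purple points mark the 79 genes called under all 19 alternatives, among them Esr1 at -5.74 and Dnm3os at 3.40, while Postn and Tcf21 lie among the genes that were not called.

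Neither gene that drives the recombinase was called. Postn was at 2995 and 3695 CPM in Postn P7 and at 4258 and 4549 CPM in Tcf21 P7, so both libraries of the line named for it lay below, and the difference of -0.40 ± 0.15 was not called (adjusted p = 0.11). Tcf21 was at 343 and 428 CPM against 347 and 354 CPM (0.14 ± 0.18, adjusted p = 0.65). Esr1, the oestrogen receptor gene, was at 3.65 and 2.75 CPM in Postn P7 and at 173 CPM in both Tcf21 P7 libraries (-5.74 ± 0.21, adjusted p = 7.3e-05). It stood at 162, 225 and 208 CPM in Tcf21 P30. MerCreMer includes part of the oestrogen receptor, and a count by gene symbol does not separate recombinase from receptor; recombinase and reporter transcripts were not analysed here.

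Enpep had the smallest adjusted p among the genes that were higher in Postn P7. It encodes glutamyl aminopeptidase, which cleaves angiotensin II at the surface of mural and other mesenchymal cells (chromosome 3, 129269175 to 129332720, GRCm38). It stood at 115 and 121 CPM in Postn P7 but only 21.4 and 23.0 CPM in Tcf21 P7, a 5.31-fold difference with a narrow spread on each side (2.41 ± 0.10, adjusted p = 7.6e-05). Tcf21 P30 lay between them at 61.8 to 66.1 CPM. Dlc1, a GTPase-activating protein of focal adhesions (chromosome 8, 36567751 to 36953143), was at 67.1 and 82.7 CPM against 16.0 and 22.5 CPM (1.96 ± 0.19, adjusted p = 0.0028). Dlc1 stood at 54.4 to 67.4 CPM in Tcf21 P30. Tpm3-rs7 was at 31.4 and 67.0 CPM against 4.04 and 4.10 CPM, but it is a close copy of the tropomyosin gene Tpm3, and reads of both genes may have been split between them. Foxd1, a forkhead factor of stromal progenitors, was at 17.1 and 24 CPM against 6.02 and 6.17 CPM (1.75 ± 0.33, adjusted p = 0.018). Lgals4, a galectin, was called higher too (15.4 and 9.61 CPM against 2.10 and 2.25 CPM). So was Rdh5, a retinol dehydrogenase (12.6 and 10.4 CPM against 2.84 and 2.89 CPM). Slc25a27, a mitochondrial carrier, was also called higher (11.3 and 13.5 CPM against 3.07 and 3.92 CPM). In Tcf21 P30, Lgals4 was at 5.45 to 8.14 CPM, Rdh5 at 5.64 to 10.1 CPM and Slc25a27 at 7.36 to 10.6 CPM. Foxd1 was at 2.65 to 5.64 CPM and Tpm3-rs7 at 3.66 to 4.06 CPM there.

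**Figure D3:**
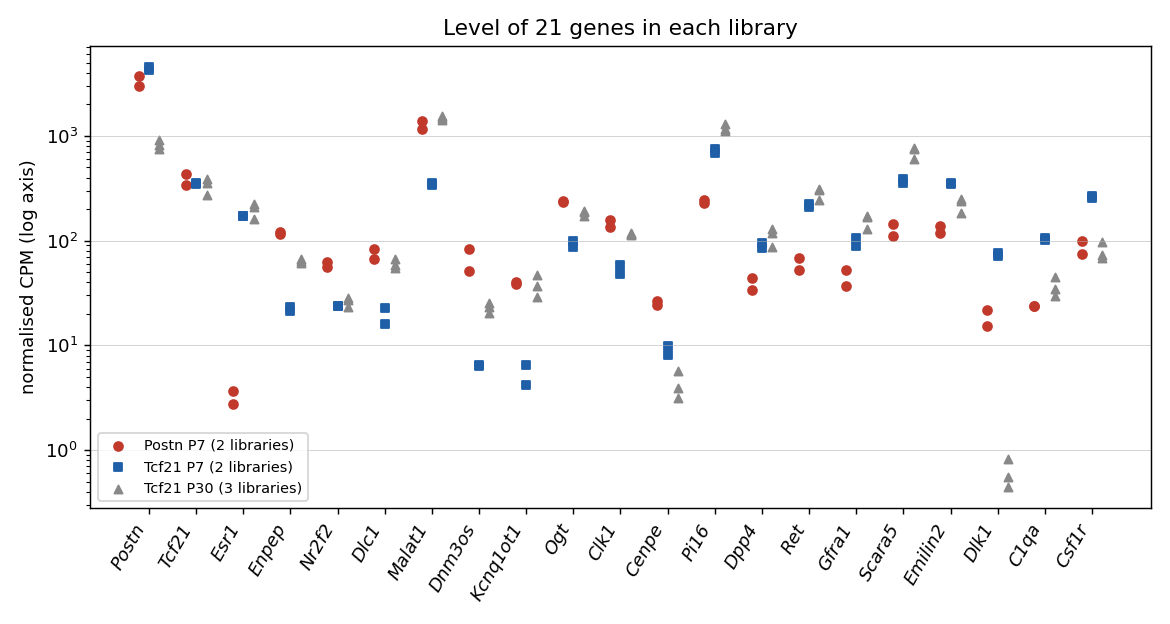
Level of 21 genes in each library, as normalised CPM on a log axis, with circles for the 2 Postn P7, squares for the 2 Tcf21 P7 and triangles for the 3 Tcf21 P30 libraries. Esr1 is near 3 CPM in Postn P7 against 173 CPM in Tcf21 P7, Enpep and Nr2f2 are higher in Postn P7, and Malat1, Kcnq1ot1 and Ogt in Tcf21 P7 lie below both other groups.

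Fibroblasts of the outer vessel wall carry Pi16 and Dpp4 and are often called universal or adventitial fibroblasts. Of 15 genes listed for them 7 were called lower in Postn P7 (5.49% of all genes) and 1 higher (6.52%). Penk, a precursor of enkephalin peptides, was the gene called higher, at 12.2 and 20.9 CPM against 7.33 and 6.41 CPM. In Tcf21 P30 Penk stood at 19.3 to 27.1 CPM. The median difference of the list was -0.63 against 0.00 over all genes. In 3 genes both Postn P7 libraries lay above both Tcf21 P7 libraries (31.4% of all genes) and in 11 below (32.5%). The largest increase, 2.01, was not called. Pi16, a peptidase inhibitor (chromosome 17, 29317680 to 29330593), was at 242 and 231 CPM in Postn P7 and at 680 and 747 CPM in Tcf21 P7 (-1.59 ± 0.12, adjusted p = 0.0012). Dpp4, a dipeptidyl peptidase of progenitor-like fibroblasts, was at 34.0 and 43.7 CPM against 85.3 and 94.5 CPM (-1.21 ± 0.19, adjusted p = 0.013). Clec3b, which encodes tetranectin, was at 61.0 and 90.3 CPM against 201 and 215 CPM. Summed over the list, the Postn P7 libraries held 3403 and 3855 CPM, the Tcf21 P7 libraries 5309 and 5364 CPM, and those of P30 6626 to 7478 CPM. With the Tcf21 P7 libraries summed into a single library, Pi16 was the single member of the list still called. AC162182.1, an antisense model that lies within Pi16 on the other strand, was lower too (-1.56), and without a known strand setting their reads cannot be told apart. Scara5, a scavenger receptor for ferritin that the same fibroblasts make, was at 110 and 145 CPM in Postn P7 and at 352 and 389 CPM in Tcf21 P7 (-1.54 ± 0.17, adjusted p = 0.0039). In Tcf21 P30 Scara5 stood at 604 to 774 CPM.

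Several secreted and matrix genes were lower in Postn P7, whereas Col1a1, Col1a2 (-0.35 ± 0.15) and Col3a1 (-0.36 ± 0.16), the chains of the main interstitial collagens, were not called. Emilin2, an elastin-microfibril interface protein (chromosome 17, 71252172 to 71311978), was at 118 and 137 CPM in Postn P7 and at 348 and 355 CPM in Tcf21 P7 (-1.46 ± 0.16, adjusted p = 0.0039). Adamtsl3, an ADAMTS-like matrix protein, was at 104 and 121 CPM against 284 and 296 CPM (-1.36 ± 0.14, adjusted p = 0.0033). Angptl7, a secreted angiopoietin-like protein, was at 18.9 and 26.8 CPM against 76.6 and 82.4 CPM (-1.80 ± 0.20), and it lies within Mtor on the opposite strand. These 3 genes kept their call under every alternative. Among 17 fibrillar and associated collagens, 5 were lower (5.49% of all genes) and none higher (6.52%), with a median of -0.44. Col5a3 was at 323 and 334 CPM against 724 and 707 CPM (-1.12 ± 0.13, adjusted p = 0.0049), and Col6a6 at 368 and 394 CPM against 722 and 672 CPM (-0.87 ± 0.12). Of 17 elastic fibre genes 5 were lower (5.49% of all genes) and none higher, with a median of -0.39. With each other scaling 3 were lower. Of 22 basement membrane genes 3 were lower and 2 higher, against 5.49% and 6.52% of all genes. Lamc1 and Hspg2 were among those lower. Col4a5 (0.66 ± 0.13) and Col4a6 (0.51 ± 0.13), neighbouring collagen IV chains of chromosome X, were higher. Under DESeq2 size factors 1 basement membrane gene was lower, and under upper-quartile factors or library size alone none was. With the Tcf21 P7 libraries summed, Emilin2 was still called and no member of the collagen or basement membrane lists was.

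The activated fibroblast list, which includes Postn itself, had a median of 0.00 over its 18 genes. Thbs4, a thrombospondin of tendon and injured heart, was higher in Postn P7 at 112 and 73.5 CPM against 48.1 and 45.1 CPM (0.99 ± 0.18, adjusted p = 0.018). Comp, its relative in cartilage and tendon (-1.18 ± 0.25), Cthrc1, a collagen triple helix protein of activated fibroblasts (-0.61 ± 0.15), and Thbs1 (-0.51 ± 0.13) were lower. The 20 fibroblast identity genes had a median of -0.30. In 14 both Postn P7 libraries lay below both Tcf21 P7 libraries (32.5% of all genes), and in 1 above. Their summed level was 43945 and 53951 CPM against 61257 and 61203 CPM. Mfap5 and Lamc1 were called lower. Cdh11, a mesenchymal cadherin, was called higher at 314 and 335 CPM against 205 CPM in each Tcf21 P7 library (0.67 ± 0.09, adjusted p = 0.0083).

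Signals and receptors for nerves were compared because the series concerns cardiac innervation. Target-derived neurotrophins keep neurons alive, and semaphorins, netrins and ephrins steer their axons. Of 47 such genes tested of 49 listed, 3 were higher and 4 lower in Postn P7, with a median of 0.03. Over all genes 6.52% were called higher and 5.49% lower, so the list as a whole lay near those shares. Ret, the receptor kinase for ligands of the GDNF family (chromosome 6, 118151745 to 118197718), was at 52.5 and 68.5 CPM in Postn P7 and at 224 and 211 CPM in Tcf21 P7 (-1.85 ± 0.16, adjusted p = 0.0017). Its co-receptor Gfra1 was at 36.6 and 52.4 CPM against 88.4 and 106 CPM (-1.13 ± 0.21, adjusted p = 0.019). In Tcf21 P30, Ret was at 243 to 309 CPM and Gfra1 at 128 to 173 CPM, so both were lowest in the Postn P7 libraries. Ret kept its call under every alternative and Gfra1 under 15.

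Bdnf, a neurotrophin of sensory and central neurons, was higher in Postn P7 at 3.81 and 3.14 CPM against 0.398 and 0.692 CPM (2.66 ± 0.41, adjusted p = 0.011), at a low level in all libraries. Ntf3, another neurotrophin, was at 7.88 and 9.03 CPM against 3.81 and 3.69 CPM, without overlap but not called (1.17 ± 0.41, adjusted p = 0.10). The axon guidance receptors Epha3 (0.96 ± 0.24) and Epha7 (0.71 ± 0.18) were higher. Sema3b, a secreted semaphorin, was at 23.4 and 23.8 CPM against 51.0 and 52.2 CPM (-1.13 ± 0.13, adjusted p = 0.0039), and Ntn4, a netrin of basement membranes, was lower as well (-0.79 ± 0.13). Islr2 and Stmn4, genes known from neurons, were called lower under every alternative. Islr2, an axon growth protein, was at 1.37 and 1.35 CPM against 8.24 and 11.4 CPM, and Stmn4, a stathmin of neurons, at 9.99 and 8.65 CPM against 30.1 and 31.7 CPM.

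Some markers of Schwann cells, the glia that ensheathe those nerves, were called higher in Postn P7. Erbb3, the glial neuregulin receptor, was at 4.39 and 8.65 CPM against 0.966 and 1.56 CPM (2.36 ± 0.60, adjusted p = 0.042), and Fabp7, a fatty acid binding protein of glia, at 5.08 and 4.55 CPM against 1.19 and 1.21 CPM (1.99 ± 0.48, adjusted p = 0.036). Of 11 tested markers of 13 listed, 3 were called higher (6.52% of all genes) and none lower, with a median of 1.85. In 9 both Postn P7 libraries lay above both Tcf21 P7 libraries, against 31.4% of all genes. Summed over the list, Postn P7 held 51.7 and 70.8 CPM, Tcf21 P7 held 33.6 and 32.4 CPM, and Tcf21 P30 held 56.1 to 75.5 CPM. Levels were low throughout, and none of the 11 was called without Postn P7 replicate 2 or without either Tcf21 P7 library.

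Mural cells, the pericytes and smooth muscle cells of vessel walls, express Pdgfrb as do fibroblasts. Pdgfrb was the single called member of the 16 pericyte markers, where 6.52% of all genes were called higher. It was at 651 and 633 CPM in Postn P7 and at 431 and 409 CPM in Tcf21 P7 (0.61 ± 0.09, adjusted p = 0.011). The list had a median of 1.15, and in 14 of 16 both Postn P7 libraries lay above both Tcf21 P7 libraries, against 31.4% of all genes. Abcc9, a subunit of the vascular potassium channel of pericytes, was at 313 and 226 CPM against 103 and 89.0 CPM and was not called (1.49 ± 0.53, adjusted p = 0.13). Rgs5, a G-protein regulator of pericytes, was at 358 and 197 CPM against 105 and 104 CPM (1.41 ± 1.01, adjusted p = 0.41), and it ran from 42.2 to 328 CPM in Tcf21 P30. Summed over the 16 markers, Postn P7 held 2752 and 2063 CPM, Tcf21 P7 held 1382 and 1299 CPM, and Tcf21 P30 held 1061 to 2062 CPM. Fitted on the 4 P7 libraries alone, 11 of the 16 were called higher, and 9 without Tcf21 P30 replicate 1, whose pericyte level was the highest of that group. Without either Tcf21 P7 library none was called. Of 18 smooth muscle markers 2, Synpo2 (0.94 ± 0.25) and Cald1 (0.41 ± 0.11), were higher, against 6.52% of all genes. The contractile genes Acta2 and Myh11 were not called. The part of mural cells in the level of Enpep was not tested.

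Receptors for vasoactive hormones were compared in the same way. Ednra, the endothelin receptor of smooth muscle and fibroblasts (chromosome 8, 77663031 to 77724464), was at 125 and 132 CPM in Postn P7 and at 68.4 and 63.0 CPM in Tcf21 P7 (0.97 ± 0.13, adjusted p = 0.0065), and at 28.1 to 35.8 CPM in Tcf21 P30. Ptger4, a prostaglandin E receptor, was at 116 and 163 CPM against 88.6 and 79.1 CPM (0.73 ± 0.16). Adra1a, an adrenergic receptor that responds to sympathetic noradrenaline, was lower at 5.55 and 6.53 CPM against 12.6 and 13.6 CPM (-1.11 ± 0.21, adjusted p = 0.018). These were the 3 called genes of 30 tested, where 12.0% of all genes were called. Cpm, a membrane carboxypeptidase, was higher beside Enpep among the 23 peptidases (31.7 and 31.2 CPM against 13.4 and 11 CPM), and Dpp4 and Cpz were lower. That is 2 higher and 2 lower, against 6.52% and 5.49% of all genes. Of 48 ion channel genes, Kcna2, Trpm7 and Kcnt2 were higher (6.52% of all genes) and none lower, with a median of 0.45.

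Among transcription factors of mesenchyme and heart, 7 of 63 tested were higher in Postn P7 and 2 lower, against 6.52% and 5.49% of all genes. Nr2f2, also called COUP-TFII, an orphan nuclear receptor of veins, atria and mesenchyme (chromosome 7, 70351944 to 70366735), was at 55.6 and 62.1 CPM in Postn P7 and at 24 and 23.7 CPM in Tcf21 P7 (1.30 ± 0.13, adjusted p = 0.0029). It stayed at 23.3 to 28.2 CPM in Tcf21 P30, and it was the single factor of the list that kept its call under every alternative. The gene overlaps the opposite-strand transcript B130024G19Rik, which was higher too (2.47 ± 0.42). Foxc2, a forkhead factor of vessels and valves (47.8 and 45.1 CPM against 29.4 and 25.4 CPM), Nfib (341 and 384 CPM against 238 and 244 CPM), Snai2, a repressor active in epithelial to mesenchymal transition (82.0 and 89.9 CPM against 59.7 and 57.6 CPM), Zeb2, Ebf1 and Heyl made up the rest of the increases. Hic1, a repressor that marks quiescent mesenchymal progenitors, was lower at 285 and 229 CPM against 448 and 437 CPM (-0.78 ± 0.12, adjusted p = 0.012), and Srf was lower by a smaller amount (-0.59 ± 0.14).

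Signalling pathways that shape mesenchyme showed single genes rather than whole lists. In the Hedgehog pathway, where ligand relieves Ptch1's block on Smo and Gli1 is a direct target, Gli1 was higher at 34.2 and 43.2 CPM against 19.4 and 19 CPM (1.01 ± 0.19, adjusted p = 0.018). Hhip, a decoy receptor and target of the pathway, was higher at 22.4 and 30.6 CPM against 11.4 and 12.2 CPM (1.17 ± 0.20). Smo itself was lower at 182 and 184 CPM against 280 and 283 CPM (-0.62 ± 0.12), and Ptch1, a further target, was at 53.2 and 54.0 CPM against 35.2 and 36.6 CPM but was not called (adjusted p = 0.096). Of 12 members tested of 14 listed, 2 were thus higher and 1 lower, against 6.52% and 5.49% of all genes, and no others were called.

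In the Notch pathway the targets Hey2 (1.45 ± 0.38) and Heyl (0.49 ± 0.13) were higher and Hes1 (-0.44 ± 0.10) lower. The non-canonical ligand Dlk1, an imprinted growth regulator (chromosome 12, 109452823 to 109463336), was at 15.4 and 21.7 CPM against 76.4 and 71.1 CPM (-1.99 ± 0.21, adjusted p = 0.0033) and was below 1 CPM in all 3 Tcf21 P30 libraries. Dlk1 kept its call under every alternative. H19, another imprinted fetal growth gene, was at 48.9 and 52.1 CPM against 142 and 141 CPM (-1.49 ± 0.33, adjusted p = 0.038), while Meg3 of the Dlk1 locus was higher at 18.1 and 37.5 CPM against 5.91 and 7.56 CPM (2.04 ± 0.48, adjusted p = 0.045).

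In the BMP list the inhibitor of DNA binding Id4 (0.85 ± 0.13), the ligand Gdf10 (0.63 ± 0.10) and the receptor Bmpr1a (0.51 ± 0.10) were higher. The ligand Bmp6 was lower (-0.77 ± 0.10). Bmp6 was at 126 and 132 CPM against 219 and 220 CPM. In Wnt signalling Rspo3, an R-spondin that amplifies the signal, was at 2.54 and 2.43 CPM against 0.853 and 0.404 CPM (1.97 ± 0.53, adjusted p = 0.048), Sfrp4, a secreted Wnt binder, was higher (1.51 ± 0.23), and the receptors Fzd2 and Fzd8 were lower. In TGF-beta signalling Smad3 (-0.70 ± 0.14) and the SMAD repressor Ski (-0.52 ± 0.13) were lower. Fgf7, a growth factor for epithelium, was higher (9.52 and 13.2 CPM against 5.06 and 3.12 CPM), and Fgf18 and Fgf16 were lower. In Tcf21 P30 Fgf7 was at 13.9 to 15.9 CPM and Sfrp4 at 13.3 to 18.8 CPM, while Rspo3 was at 0.252 to 0.550 CPM. Id4 and Gdf10 were lower in Tcf21 P30 than in Tcf21 P7. Aldh1a2 and Aldh1a3, enzymes that make retinoic acid, were both lower (-0.69 ± 0.12 and -0.82 ± 0.17). Dio2, which activates thyroid hormone, was higher at 52.2 and 41.9 CPM against 22.2 and 21.6 CPM (1.10 ± 0.19, adjusted p = 0.014). It was at 51.3 to 71.3 CPM in Tcf21 P30.

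Most macrophage markers were called lower in Postn P7. Of 18 myeloid markers 15 were called lower (5.49% of all genes) and none higher, with a median of -1.59. In 17 both Postn P7 libraries lay below both Tcf21 P7 libraries (32.5% of all genes). C1qa, a chain of complement C1q that tissue macrophages secrete, was at 23.8 and 23.7 CPM in Postn P7 and at 101 and 106 CPM in Tcf21 P7 (-2.13 ± 0.18, adjusted p = 0.0017). Csf1r, the receptor that macrophages need to survive, was at 74.4 and 98.3 CPM against 268 and 257 CPM (-1.61 ± 0.19), and Adgre1, which encodes F4/80, at 15.3 and 20.8 CPM against 68.6 and 66.1 CPM (-1.90 ± 0.24). Ptprc, the pan-leukocyte gene CD45, was at 9.68 and 18.5 CPM against 12.6 and 14.8 CPM and did not follow (0.04 ± 0.33, adjusted p = 0.95). Summed over the 18, Postn P7 held 421 and 560 CPM, far under the 1444 and 1436 CPM of Tcf21 P7, and Tcf21 P30 held 489 to 737 CPM. The Tcf21 P7 libraries were thus the high group of the 3. In bulk RNA, fewer cells of a type and less RNA per cell cannot be told apart.

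Among the 25 genes that were lower under every alternative were the myeloid genes C1qa, Csf1r, Adgre1, Alox5, Fcgr3, Spi1, Mpeg1, C5ar1 and Cyth4. Without Tcf21 P7 replicate 1 or 2, 4 or 3 of the 18 markers were called. Ackr4, a scavenger receptor for the chemokines that guide dendritic cells, was at 39.9 and 34.7 CPM against 86.5 and 89.8 CPM (-1.24 ± 0.12, adjusted p = 0.0023), and it overlaps Acad11 on the other strand. Ces1d, a carboxylesterase with close copies beside it, was at 0.476 and 0.961 CPM against 3.64 and 5.83 CPM (-2.74 ± 0.36), and it was at 64.7 to 83.6 CPM in Tcf21 P30. Car6, a secreted carbonic anhydrase, had no count in either Postn P7 library and 45 and 48 counts in Tcf21 P7. Set against 3 counts per Postn P7 library, the number that a count of 0 allows, it was at least 13.9-fold lower, for counting error only.

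Of the list of nuclear and regulatory long non-coding RNAs, which also holds hosts of microRNAs, 27 of 33 were tested. In Postn P7, 12 were called higher (6.52% of all genes) and 1, H19, was called lower (5.49%), with a median of 0.86. Malat1, an abundant RNA of nuclear speckles (chromosome 19, 5795690 to 5802672), was at 1161 and 1374 CPM in Postn P7 and at 354 and 341 CPM in Tcf21 P7 (1.87 ± 0.12, adjusted p = 0.001). Gm37376, a model on its opposite strand, had a like difference (1.88 ± 0.13). Neat1, the scaffold of paraspeckles, was at 54.0 and 42.4 CPM against 14.9 and 17.0 CPM, and Kcnq1ot1, an imprinted antisense RNA, at 38.9 and 40.5 CPM against 4.15 and 6.46 CPM (2.9 ± 0.28). Firre, an X-linked RNA that stays in the nucleus, was at 39.9 and 48.4 CPM against 9.55 and 8.71 CPM. Summed over the list, Postn P7 held 1921 and 2159 CPM, Tcf21 P7 907 and 906 CPM, and Tcf21 P30 2190 to 2265 CPM, so the Tcf21 P7 libraries were the low group of the 3. With a Tcf21 P7 library left out, 6 of the 12 were still called.

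Dnm3os and Mir99ahg, which were among those 6, and Dleu2 are transcripts that contain microRNA hairpins. Dnm3os lies antisense within Dnm3, itself called higher (0.89 ± 0.24), on chromosome 1 at 162217623 to 162225550, and the Postn P7 libraries held it at 51.7 and 83.7 CPM, those of Tcf21 P7 at 6.54 and 6.29 CPM (3.40 ± 0.24, adjusted p = 0.0012). Its level in Tcf21 P30 was 20.5 to 25.6 CPM. Mir99ahg was at 26.6 and 28.2 CPM against 8.64 and 9.18 CPM (1.62 ± 0.13), and Dleu2 at 10.3 and 9.16 CPM against 5.17 and 4.21 CPM (1.05 ± 0.22). Mature sequences of these hosts are shown from RefSeq, 5′ to 3′, with the seed (bases 2 to 8) in capitals. The seed sets which messages a microRNA can pair with. Those of Dnm3os lie at chr1:162217844-162217866, chr1:162217883-162217904, chr1:162223397-162223418 and chr1:162223438-162223459 on the plus strand of GRCm38.p6.
miR-199a-5p: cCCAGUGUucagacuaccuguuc
miR-199a-3p: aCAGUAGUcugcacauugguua
miR-214-5p: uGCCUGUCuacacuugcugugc
miR-214-3p: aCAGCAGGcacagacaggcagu
Those of Mir99ahg are the next set, in the order of the hairpins on the plus strand of chromosome 16.
miR-99a-5p: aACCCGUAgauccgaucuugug
let-7c-5p: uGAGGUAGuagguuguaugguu
miR-125b-5p: uCCCUGAGacccuaacuuguga
Dleu2 holds a pair that shares a seed, and H19, which was lower, holds miR-675.
miR-15a-5p: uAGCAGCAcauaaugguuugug
miR-16-5p: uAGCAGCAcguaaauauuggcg
miR-675-5p: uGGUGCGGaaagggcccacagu
The mature RNAs themselves were not measured. The hairpin symbols had 0 or 1 counts over the 7 libraries, so the values describe the host transcripts.

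Of 36 genes of splicing factors and nuclear speckle proteins, 21 were called higher in Postn P7 (6.52% of all genes) and none lower. Their median was 0.61 against 0.00 over all genes, and 8 were called under every alternative. Clk1 and Clk4, kinases that phosphorylate SR splicing proteins, were at 135 and 157 CPM against 48.0 and 58.7 CPM (1.45 ± 0.12, adjusted p = 0.0017) and at 64.7 and 83.7 CPM against 27.5 and 22.9 CPM (1.56 ± 0.15). Pnisr, an SR-related protein, was at 117 and 113 CPM against 26.8 and 36.5 CPM (1.87 ± 0.14), and Arglu1, a splicing coactivator, at 94.1 and 79.6 CPM against 24.6 and 26.9 CPM (1.75 ± 0.15). Ogt, which adds O-linked GlcNAc to nuclear and cytosolic proteins (chromosome X, 101640060 to 101684351), was at 236 and 237 CPM against 87.4 and 99.7 CPM (1.34 ± 0.10, adjusted p = 0.0014). Ccnl2, a cyclin of speckles, was at 245 and 377 CPM against 87.5 and 89.6 CPM. The core speckle proteins Son (0.33 ± 0.12) and Srrm2 (0.27 ± 0.12) and the spliceosome subunit U2af1 (-0.78) were not called. Summed over the list, Postn P7 held 5827 and 5985 CPM, Tcf21 P7 held 3887 and 4043 CPM, and Tcf21 P30 lay between at 4841 to 5307 CPM.

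Some genes of large nuclear and centrosomal proteins were called higher as well. Of 36 chromatin regulators chosen for large size 13 were higher (6.52% of all genes) and none lower (median 0.44). Atrx, a chromatin remodeller of heterochromatin, led them at 175 and 191 CPM against 59.8 and 63.4 CPM (1.57 ± 0.12, adjusted p = 0.0014). Tet2, which oxidises methylated cytosine, was at 90.8 and 87.0 CPM against 39.1 and 42.5 CPM (1.12 ± 0.14). Of 25 centrosome, cilium and centromere genes chosen for large size 9 were higher (6.52% of all genes) and none lower (median 0.55). Akap9, a Golgi and centrosome scaffold, was at 81.2 and 100 CPM against 33.1 and 36.6 CPM (1.38 ± 0.12). Pcm1, a protein of centriolar satellites, was at 59.3 and 60.5 CPM against 25.0 and 25.2 CPM (1.25 ± 0.14). In Tcf21 P30 Atrx was at 126 to 153 CPM and Akap9 at 80.2 to 81.6 CPM. Tet2 was at 40.8 to 53.9 CPM and Pcm1 at 29.0 to 38.4 CPM there. With Tcf21 P7 summed, 9 splicing, 1 chromatin and 3 centrosome genes were called.

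Exon length was compared with the calls over all protein-coding genes. The chromatin and centrosome lists hold genes of large size by choice, with median exon lengths of 14213 and 9996 bases. Among protein-coding genes ranked by exon length in GENCODE M21, the quartile with the shortest exons (39 to 2802 bases) had 1.54% called higher and 11.1% called lower. The quartile with the longest (6841 to 123179 bases) had 12.4% higher and 2.95% lower. The median difference went from -0.20 through -0.07 and 0.01 to 0.15 over the quartiles. Between the replicates of a group the same medians were 0.00 to 0.05. The 54 genes higher under every alternative had a median exon length of 8338 bases, against 4106 for the 25 lower and 3784 over all genes tested.

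Provisional gene models were also called, where 6.52% of all genes were called higher and 5.49% lower. Models of the annotation class TEC, which await experimental proof, numbered 613, of which 134 (21.9%) were higher and 3 lower in Postn P7, with a median of 1.59 (1.5 with those lacking counts in Tcf21 P7 set at 3 counts per library). The 332 within a protein-coding gene on its own strand had 111 higher, none lower and a median of 2.50, or 2.30 with the 30 that had no count in Tcf21 P7 set in the same way. The 101 on the strand opposite such a gene had a median of 0.22, and the 180 outside protein-coding genes 0.27. Of 65 sense-intronic models 18 (27.7%) were higher and none lower, with a median of 1.86, or 1.76 set in that way. Summed over TEC models, the Postn P7 libraries held 3219 and 3449 CPM, both Tcf21 P7 libraries 2319 CPM, and the P30 libraries 3424 to 3567 CPM. The part of exon length and of intronic reads in the increases of nuclear RNAs, splicing factors and large proteins was not tested.

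**Figure D4:**
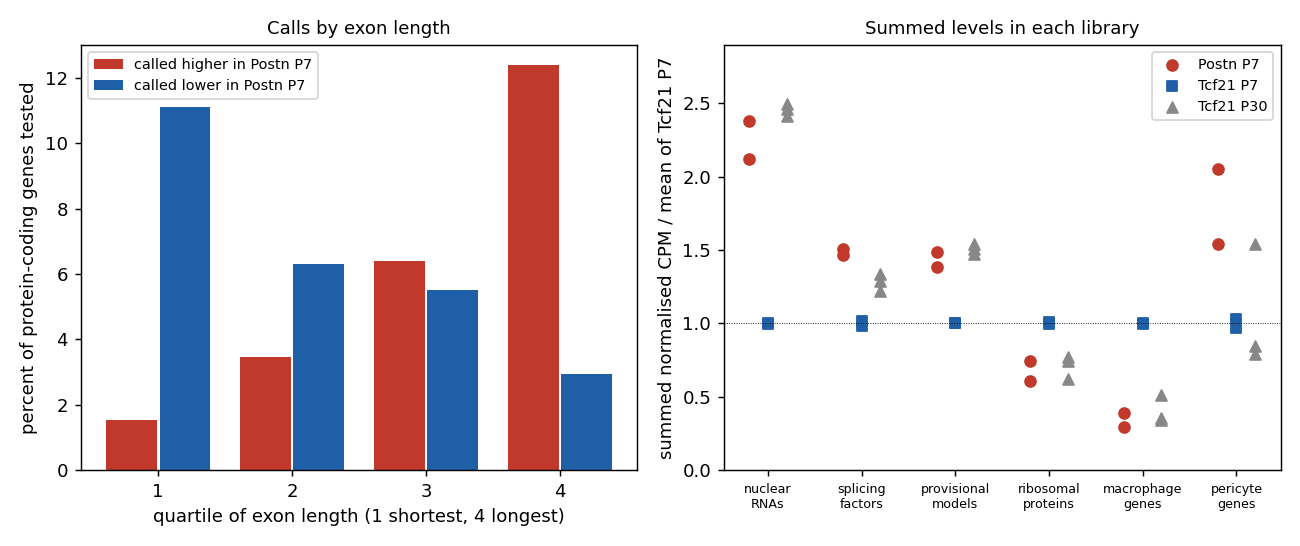
Left, the percent of protein-coding genes called higher or lower in Postn P7 by quartile of exon length, rising from 1.54% to 12.4% higher and falling from 11.1% to 2.95% lower. Right, summed normalised CPM of 6 sets of genes in each library, divided by the mean of the Tcf21 P7 libraries, where provisional models are the TEC models. Tcf21 P7 is the lowest group for nuclear RNAs, splicing factors and provisional models and the highest for ribosomal protein and macrophage genes.

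Many messages of ribosomal and mitochondrial proteins were called lower in Postn P7. Of 79 cytosolic ribosomal protein genes 41 were lower (5.49% of all genes) and none higher, with a median of -0.57. Rps20, a protein of the small subunit, was at 75.6 and 58.4 CPM in Postn P7 and at 117 and 114 CPM in Tcf21 P7 (-0.78 ± 0.18, adjusted p = 0.033). Summed over the 79, Postn P7 held 6436 and 5240 CPM, Tcf21 P7 held 8566 and 8681 CPM, and Tcf21 P30 held 5367 to 6660 CPM, so Tcf21 P7 was the high group. With library size alone 6 of the 79 were lower, and without Postn P7 replicate 2 or either Tcf21 P7 library none was. Ribosomal protein genes have many processed pseudogenes with which reads may be shared. Of 75 nuclear genes of oxidative phosphorylation 31 were lower (5.49% of all genes) and none higher, with a median of -0.42. The median exon length was 1770 bases in the ribosomal list and 1756 in the oxidative phosphorylation list. Both lie in the range of the quartile with the shortest exons, which had 11.1% called lower and a median of -0.20. The part of exon length in these decreases was not tested. Ndufa4, a subunit of the respiratory chain, was at 80.6 and 69.6 CPM against 114 and 116 CPM (-0.61 ± 0.13). With library size alone 1 of the 75 was higher and 1 lower, and without either Tcf21 P7 library none was called. The 7 mitochondrially encoded genes tested of 13 listed had a median of -0.16, and none was called by edgeR, DESeq2 or limma-voom or had an unadjusted p under 0.05.

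Lysosomal and antioxidant genes held further decreases. Of 44 lysosome genes 12 were lower (5.49% of all genes) and 1, the channel Mcoln1, was higher (6.52%), with a median of -0.33. The largest decreases, Laptm5 (-1.53 ± 0.20) and the protease gene Ctsc (-1.16 ± 0.25), are genes that macrophages express strongly, and Hexa, a hexosaminidase of most cells, was at 116 and 139 CPM against 201 and 208 CPM (-0.68 ± 0.12, adjusted p = 0.014). Of 38 antioxidant and detoxification genes 9 were lower (5.49% of all genes) and none higher, with a median of -0.37. Among the 9 were Cbr2, a carbonyl reductase (8.25 and 5.64 CPM against 34.2 and 35 CPM), and the glutathione peroxidases Gpx1, Gpx3 and Gpx4. The list had a median exon length of 2059 bases, whose part in the result was not tested. Macrophage markers were lower in the same libraries, and their part in the lysosomal decrease was not tested.

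**Figure D5:**
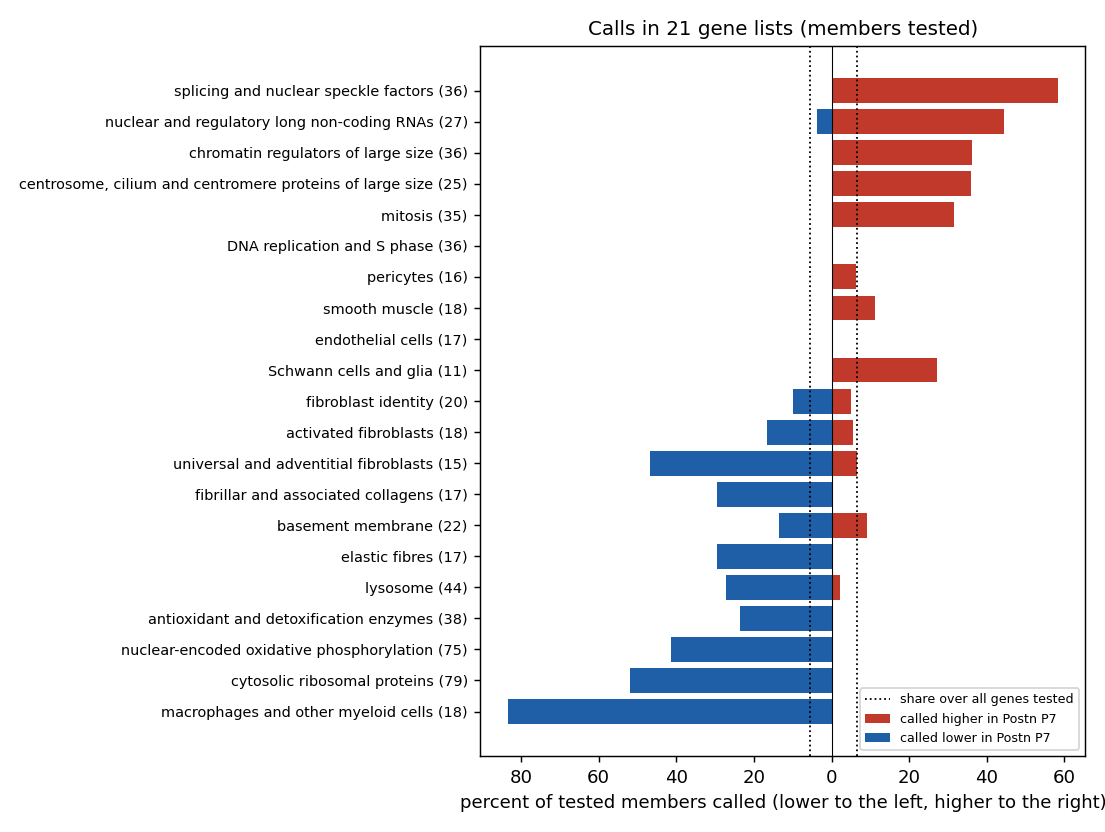
Percent of tested members called higher (right) or lower (left) in Postn P7 for 21 gene lists, with the number tested in brackets and dotted lines at the shares over all genes, 6.52% and 5.49%. Splicing factors lead the increases, and macrophage, ribosomal protein and universal fibroblast genes lead the decreases.

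Some genes of mitosis were called higher in Postn P7, and no gene of DNA replication was called. Of 35 mitosis genes tested of 36 listed, 11 were higher (6.52% of all genes) and none lower, with a median of 0.48. In 30 both Postn P7 libraries lay above both Tcf21 P7 libraries, against 31.4% of all genes. Kif20b, a kinesin of cytokinesis, was at 15 and 14.9 CPM against 3.69 and 4.21 CPM (1.91 ± 0.23, adjusted p = 0.0055). Cenpe, a kinetochore motor, was at 24.1 and 26.6 CPM against 9.95 and 8.08 CPM (1.49 ± 0.26), and Hmmr, a spindle and hyaluronan-binding protein, at 25.9 and 20.9 CPM against 8.81 and 10.9 CPM (1.25 ± 0.24). Mki67, the usual marker of cycling cells, was at 78.5 and 69.1 CPM against 31.5 and 37.6 CPM and missed the threshold (1.09 ± 0.35, adjusted p = 0.096), and Cdk1 was not called (-0.20). Summed over the 35, Postn P7 held 1504 and 1342 CPM, Tcf21 P7 held 1007 and 975 CPM, and Tcf21 P30 held 338 to 390 CPM. The 36 replication genes had a median of -0.07, which became 0.04 with library size alone, where 1 was called higher. By edgeR 3 of them had an unadjusted p under 0.05, and 0 were called by DESeq2 and 1 by limma-voom. The 11 called mitosis genes lost their call where either Tcf21 P7 library was left out. The list had a median exon length of 5158 bases, whose part in the result was not tested.

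The promoters of mitotic genes are known for CCAAT boxes, which NF-Y binds, and for the cell cycle homology region TTTGAA, through which the DREAM and MuvB complexes act. Both motifs were searched on both strands in the 250 bases before the RefSeq start of GRCm38.p6. CCAAT was present in 22 of 30 mitosis promoters (73.3%) against 35.8% of the promoters of 11817 tested genes, and in 8 of the 11 called genes (72.7%). TTTGAA was in 8 of 30 (26.7%) against 10.7%, and in 2 of the 11 called (18.2%). The motifs can share at most a base where they abut and were counted separately, and a match describes the sequence without showing a site in use. The 120 bases before the start are shown for the 4 called genes with more than 1 match there, 5′ to 3′ on the strand of the gene, with the motifs in capitals (ATTGG and TTCAAA are the same motifs on the other strand).
Ect2, at chr3:27153879-27153998 on the minus strand: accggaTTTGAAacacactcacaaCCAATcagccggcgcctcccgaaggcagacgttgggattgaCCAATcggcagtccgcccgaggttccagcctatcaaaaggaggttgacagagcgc
Hmmr, at chr11:40733438-40733557 on the minus strand: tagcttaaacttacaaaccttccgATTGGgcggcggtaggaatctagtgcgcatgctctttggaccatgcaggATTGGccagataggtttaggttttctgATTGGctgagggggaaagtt
Aspm, at chr1:139454653-139454772 on the plus strand: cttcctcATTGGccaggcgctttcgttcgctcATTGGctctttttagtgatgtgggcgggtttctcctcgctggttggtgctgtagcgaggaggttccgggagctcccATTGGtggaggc
Kif11, at chr19:37376262-37376381 on the plus strand: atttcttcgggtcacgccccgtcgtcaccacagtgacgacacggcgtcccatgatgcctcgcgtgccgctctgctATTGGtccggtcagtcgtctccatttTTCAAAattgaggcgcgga
Ect2, a cytokinesis exchange factor, was at 36.5 and 33.2 CPM against 21.6 and 19.7 CPM, Aspm, a spindle pole protein, at 36.9 and 33.1 CPM against 15.6 and 16.9 CPM, and Kif11, the spindle motor Eg5, at 26.0 and 20.6 CPM against 12.1 and 11.7 CPM. In each of these genes both Postn P7 libraries lay above both Tcf21 P7 libraries, as in 31.4% of all genes. They were chosen from the genes called higher, so this largely follows from the choice.

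Immediate early and heat shock genes, which are induced when tissue is dissociated, differed between the Postn P7 libraries themselves. Their summed level was 6029 CPM in replicate 1 and 11496 CPM in replicate 2, while Tcf21 P7 held 5945 and 6062 CPM and Tcf21 P30 held 11540 to 14254 CPM. Fosb was at 68.3 and 232 CPM against 20.6 and 21.1 CPM (2.84 ± 0.61, adjusted p = 0.046) and Hspa1a, which has a near-identical neighbour, at 30.7 and 31.2 CPM against 15.5 and 13.4 CPM. Cxcl1, an inducible chemokine, was at 59.2 and 120 CPM against 33.4 and 35.5 CPM (1.38 ± 0.32), and Ifih1, a sensor of viral RNA, at 6.87 and 19.2 CPM against 1.42 and 3.17 CPM (2.49 ± 0.57). Without Postn P7 replicate 1, 10 of the 29 immediate early and heat shock genes were called higher in place of 2, and without either Tcf21 P7 library none was.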

How the data were processed

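Bulk RNA was sequenced from sorted GFP-positive cardiac cells, and the authors deposited raw counts as a single table, with gene symbols as rows and the 7 libraries as columns. Per the submitters' processing notes the tool was STAR and the build GRCm38. The STAR version, the counter, the annotation release and the strand setting are not given in the sources used here, so reads of overlapping or near-identical genes cannot be assigned anew. The table held 54735 symbols, of which 21563 had no count and 54106 matched GENCODE M21 for coordinates and types.

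Counts were tested in R 4.3.3 with edgeR 4.0.16. Genes passing filterByExpr were scaled by TMM factors and fitted by the robust quasi-likelihood method over all 7 libraries with a mean per group, which leaves 4 residual degrees of freedom. The contrast Postn P7 minus Tcf21 P7 was tested with the F-test at a Benjamini-Hochberg adjusted p under 0.05, over all 17636 genes. The standard error is the absolute log2 difference divided by the square root of F. The procedure was also run on simulated counts in which every library varied independently. Such counts cannot test whether the libraries of a group are technical replicates. The 19 alternatives changed the scaling, the filter, the tool (DESeq2 1.42.0, limma-voom in limma 3.58.1), the samples and the replicate block.

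Genes were named by rule: Postn, Tcf21 and Esr1; the 20 largest called changes each way at or above 10 CPM in the higher of the groups, without overlap between libraries and without provisional models; up to 20 each way called under every alternative; and up to 4 called members of each of 54 lists with 1490 members, or the most expressed member. Other genes named from the lists or as hosts of microRNAs were chosen after their values were seen. The comparison, the members and the lists were chosen with earlier results of these data known. No pairing by replicate number was assumed. Results for some genes are not reported here.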

Additional observations from a re-analysis of the deposited data

How the results depend on the processing

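Against 2118 calls (1149 higher, 969 lower), 3442 genes were called with no filter on low counts, 2113 of them higher. With library size alone, which put the median of all genes at 0.12, 1741 were higher and 472 lower, and upper-quartile scaling gave 1187 higher and 647 lower (median 0.03). With the Tcf21 P7 libraries summed, 123 were called, 89 higher and 34 lower. Without both endothelial-rich libraries (Postn P7 replicate 1 and Tcf21 P30 replicate 1) 3750 were called, 1982 higher and 1768 lower. Leaving out each library in turn gave 111 to 3250 calls, with 80 to 1811 higher and 31 to 1439 lower. Where a group was left with 1 library, that library was assumed to vary like the other groups. With the replicate block 840 were higher and 716 lower, but deviations of equally numbered P7 libraries correlated with r = 0.087, which does not show a shared origin. DESeq2 called 1207 higher and 1101 lower and limma-voom 1136 and 1054. Of 195 named genes called, 51 kept their call in every setting and none reversed. Calls were lost by 142 without Tcf21 P7 replicate 1, by 95 without Postn P7 replicate 2 and by 63 without Tcf21 P30 replicate 3. Ttn, a cardiomyocyte gene not called as reported (0.80), stood at -1.63 without both endothelial-rich libraries (adjusted p = 0.0028). The cause of these changes was not tested.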

Other observations

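Several lists had few or no called members, where 6.52% of all genes were called higher and 5.49% lower. Of 15 cardiomyocyte genes none was called by edgeR, with 0 at an unadjusted p under 0.05, 1 called by DESeq2 and 0 by limma-voom. Their median was -0.36, and in 9 both Postn P7 libraries lay below both Tcf21 P7 libraries, against 32.5% of all genes. Ttn, the giant sarcomere protein, was at 395 and 40.5 CPM in Postn P7 and at 147 and 103 CPM in Tcf21 P7, and the summed list at 1870 and 845 CPM against 1682 and 1512 CPM. Red blood cell genes were at 370 and 68.9 CPM against 506 and 482 CPM, and of 7 none was called by edgeR, DESeq2 or limma-voom or had an unadjusted p under 0.05. In all 7 both Postn P7 libraries lay below both Tcf21 P7 libraries, with a median of -1.20. In both lists Postn P7 replicate 2 held the lowest value of the 4 libraries. Without both endothelial-rich libraries, which leaves replicate 2 alone in Postn P7, the medians were -1.06 for cardiomyocyte and -2.84 for red blood cell genes. Of 8 lymphocyte and mast cell genes tested of 14 listed, 1 had an unadjusted p under 0.05 and none was called by the 3 tools. Of 12 epicardial and mesothelial genes Aldh1a2 alone was called, lower. Of 19 clock genes Clock was higher (0.79 ± 0.16) and Dbp, an output gene of the clock, lower (-0.91 ± 0.11).

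Lipid handling genes had 4 lower (5.49% of all genes) and none higher of 30. Scd1, a fatty acid desaturase, was at 35.6 and 36.1 CPM against 59.8 and 58.9 CPM (-0.73 ± 0.12), Cebpa, an adipogenic factor, at 4.55 CPM in both Postn P7 libraries against 11 and 9.64 CPM (-1.18 ± 0.20), and Apoe at 569 and 694 CPM against 936 and 928 CPM (-0.56 ± 0.14). Duoxa1, a maturation factor of dual oxidases, was at 5.29 and 5.89 CPM against 22.8 and 22 CPM (-2.00 ± 0.28), and Pla1a, a phospholipase, at 26.3 and 37.9 CPM against 111 CPM in both Tcf21 P7 libraries (-1.79 ± 0.23).

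The sex-linked transcripts are values of pools of males and females. Ddx3y, from chromosome Y, was at 70.3 and 97.1 CPM in Postn P7 and at 32.8 and 38.5 CPM in Tcf21 P7 (1.23 ± 0.48, adjusted p = 0.16), and Xist at 69.4 and 29.1 CPM against 27.7 and 30.9 CPM (0.75 ± 0.40, adjusted p = 0.27). The share of each sex in a pool was not given, and its part in the comparison was not tested.

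Further lists held called genes in small numbers, to be read beside the shares over all genes, 6.52% higher and 5.49% lower. Of 32 genes of folding and secretion in the endoplasmic reticulum 4 were lower and none higher (median -0.21), and of 24 collagen processing genes 4 were lower and none higher (median -0.28). Of 29 proteoglycan and hyaluronan genes 2 were lower, and of 39 matrix proteases and inhibitors 2 were higher and 4 lower. Of 32 integrin and focal adhesion genes 2 were lower, and of 22 cadherins and protocadherins 2 were higher. Hippo and YAP genes, 21 in number, gave 2 higher, with the factor Tead1 and the kinase Stk3, and 2 lower, with Amotl2 and Nf2. Of 21 cell cycle brakes and early cyclins 1, Ccnd3, was lower. Of 34 interferon and antigen presentation genes 1, Ifih1, was higher, and of 14 complement genes 1 was higher and 2, the receptors C3ar1 and C5ar1, were lower. Of 31 chemokine and cytokine genes 4 were higher and 3 lower, and of 14 valve and tendon genes 1 was higher and 3 lower.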
